A study of Mus musculus with 4 samples.

Results

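The combination of LNP-cGAMP with an anti-PD-L1 antibody was compared with what the 2 agents would give together if their separate differences from PBS simply added up. All 4 of the 4 libraries of the series enter this comparison as a 2 x 2 layout. Each library is a pool of pleural fluid cells from 3 mice, so each group is 1 sample, no test across animals can be made and no difference below has a replicate check. The mice were C57BL/6 carrying malignant pleural effusions of LLC, the Lewis lung carcinoma line of the same strain. All mice, controls included, were injected intrapleurally on day 11. The control pool received PBS alone, the second pool LNP-cGAMP at 1 µg, the third the anti-PD-L1 antibody clone 10F.9G2 at 30 µg, and the fourth both agents at these doses. Fluid was drawn on day 13, 48 h later. Red cells were lysed, and 4000 cells per pool were loaded for droplet 3' RNA sequencing, in which each RNA molecule carries a unique molecular identifier (UMI).

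cGAMP is the cyclic dinucleotide made by the DNA sensor cGAS. It binds STING, which switches on type I interferon and NF-kB target genes, and interferon then drives a broad antiviral and antigen presentation programme through STAT proteins. LNP-cGAMP is a nanoparticle form of it. PD-L1 is itself an interferon-inducible ligand on myeloid and tumour cells that restrains T cells through PD-1, and the antibody blocks it. The layout addresses whether the fluid cells given both agents differ from the sum of what each agent did alone.

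Barcodes with at least 1000 UMIs, at least 200 genes and at most 10% mitochondrially encoded UMIs were kept as cells, which left 13578 in all. The PBS library had 2821, the LNP-cGAMP library 3830, the anti-PD-L1 library 3379 and the combination 3548. Cells were assigned by fixed gates. A T cell had at least 2 UMIs of Cd3d, Cd3e and Cd3g and under 20 Lyz2 per 10000 UMIs, a neutrophil had Csf3r, no Csf1r and at least 50 S100a8 plus S100a9 per 10000, and a phagocyte had Csf1r and at least 20 Lyz2 per 10000. These gates took 5567 cells as phagocytes, 2640 as neutrophils and 680 as T cells. By library they gave 1545, 719, 1866 and 1437 phagocytes, 653, 793, 729 and 465 neutrophils, and 79, 277, 143 and 181 T cells, in that same library order, which is used throughout. For each gene the UMIs of all cells of a gate were summed per library and scaled to counts per common total, the CPM scale. The departure from additivity is the log2 ratio of combination to PBS minus the sum of the log2 ratios of LNP-cGAMP to PBS and of anti-PD-L1 to PBS, each on CPM + 10. Genes at or beyond 2-fold in either direction are counted as departing. The same number is the LNP-cGAMP difference measured in antibody-treated mice (combination against anti-PD-L1) minus that measured without antibody (LNP-cGAMP against PBS), 2 contrasts that share no library.

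The libraries held 68828158 to 88855120 UMIs, and kept cells had median UMIs of 16485.5 to 18603.5. The gates were compared with markers that no gate uses. The 8 such phagocyte markers summed to 5574 to 6538 CPM in phagocytes, 395 to 668 in neutrophils and 339 to 1245 in T cells. The 7 neutrophil markers summed to 10895 to 21327 CPM in neutrophils, 83.4 to 180.1 in phagocytes and 21.0 to 121 in T cells, and the 4 T cell markers (Cd8a, Cd8b1, Cd4 and Lck) to 1291 to 1640.0 CPM in T cells, 0.659 to 54.3 in neutrophils and 1.04 to 10.9 in phagocytes. Each gate was thus highest for its own markers, and phagocyte markers were also present in gated neutrophils and T cells, in LNP-cGAMP T cells at 1245 CPM against 1640.0 for the T cell markers. Female cells were not found in every library. By Y-linked and Xist UMIs, 0% of called phagocytes were female in PBS and LNP-cGAMP, against 65.7% with the antibody alone and 77.6% with both agents. Sex and antibody treatment therefore cannot be told apart over all cells, and departures in male-called cells are given beside the phagocyte genes. The female share was 60.4% and 93.2% of called neutrophils, and 70.6% and 96.1% of called T cells, in the antibody libraries, which left too few male-called cells there for such values. Between 8 and 19 kept barcodes were shared by each pair of libraries, where about 2 or fewer would be shared by random draws, and results that rest on them are given without them. Doublets were not removed.

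The shares of the gates did not add up either, and the size of the phagocyte and T cell departures depended on the gate. Phagocytes made up 54.8%, 18.8%, 55.2% and 40.5% of kept cells. The additive expectation for the combination was 18.9%, and the log2 departure of the share was 1.10 (95% interval 0.97 to 1.23, from counting error only, as for all intervals here). Lyz2, the lysozyme gene used by the gate, was itself lower after LNP-cGAMP (8954, 5406, 6867 and 5592 CPM among gated phagocytes), and only 31.1% of Csf1r cells of the LNP-cGAMP library passed its minimum, against 84.7% for PBS, 83.3% for the antibody alone and 54.7% for both. Without a Lyz2 minimum the shares were 64.2%, 58.3%, 65.3% and 72.5%, and the departure was 0.29 (0.22 to 0.36). Neutrophils were 23.1%, 20.7%, 21.6% and 13.1% of cells, lowest in the combination, with a departure of -0.56 (-0.76 to -0.35). T cells were 2.80%, 7.23%, 4.23% and 5.10%. The T cell share was thus higher than in PBS with each agent, the additive expectation was 10.9%, and the departure was -1.10 (-1.59 to -0.62). With stricter gates the T cell departure was -1.72. Cells outside all gates were 19.4%, 53.4%, 19.0% and 41.3% of kept cells, most in the 2 libraries with LNP-cGAMP.

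**Figure D1:**
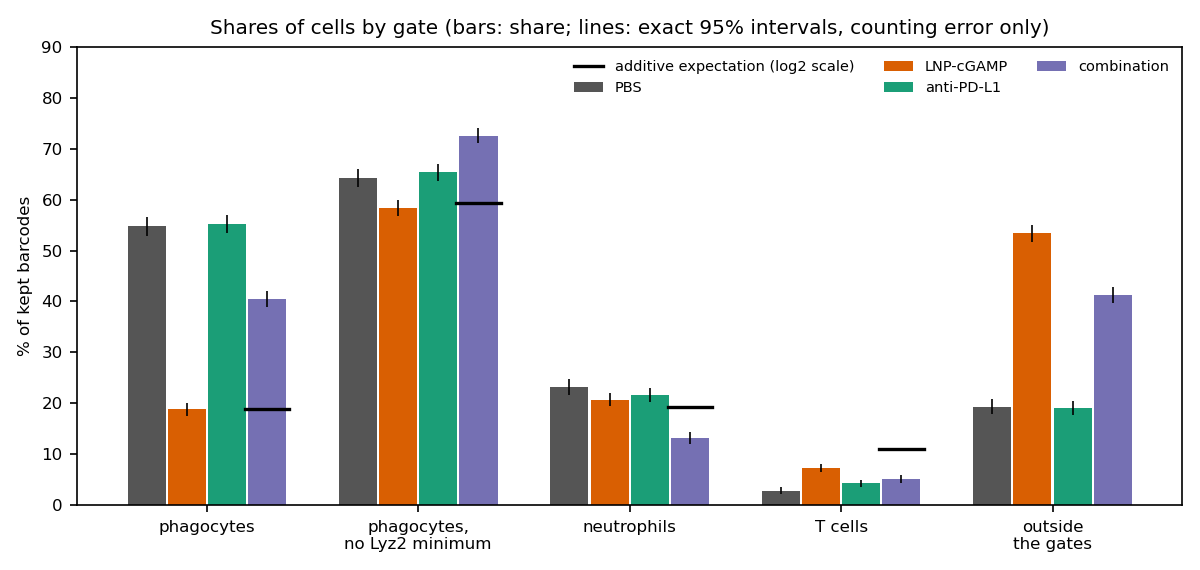
Share of kept barcodes (y axis, %) in each gate and library, with exact 95% intervals for counting error and the additive expectation on the log2 scale as a black line over the combination bar. The phagocyte bar of the combination (40.5%) stands far above its line (18.9%), but much less so without a Lyz2 minimum (72.5% against 59.3%), and the neutrophil and T cell bars lie below their lines.

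In phagocytes LNP-cGAMP differed from PBS at more genes than the combination differed from the antibody alone. Of 5341 genes past the level filter, 105 (1.97%) lay below additivity by at least 2-fold and 80 (1.5%) above it, around a median of -0.02. The counts given below for gene lists in phagocytes stand against these shares of all genes. Against PBS, LNP-cGAMP alone was at least 2-fold higher at 142 genes (2.66%) and lower at 114 (2.13%). In antibody-treated mice, the combination against anti-PD-L1 was 2-fold higher at 19 genes (0.356%) and lower at 2 (0.0374%). The combination against PBS was higher at 39 (0.73%) and lower at 15 (0.281%), and anti-PD-L1 against PBS at 18 (0.337%) and 12 (0.225%). Against LNP-cGAMP the combination was higher at 66 (1.24%) and lower at 43 (0.805%). Across the 5341 genes the LNP-cGAMP ratios without and with antibody had a Pearson correlation of 0.574 (genes are not independent replicates), with standard deviations of 0.486 and 0.19 log2 units. The ratios with antibody were thus positively correlated with those without, and their spread was smaller. The antibody ratios without and with LNP-cGAMP had a correlation of -0.07. LNP-cGAMP was the library that stood apart. It lay at least 2-fold above each of the other 3 at 36 genes and below each of them at 55, whereas PBS did so at 9 genes, anti-PD-L1 at 5 and the combination at 0. Among the 105 genes below additivity, LNP-cGAMP was at least 1.5-fold over PBS at 102, the combination was under LNP-cGAMP at 102, and it lay between the single agents at 69. Among the 80 genes above, LNP-cGAMP was at least 1.5-fold under PBS at 76, and the combination was within 1.5-fold of PBS at 65. In male-called phagocytes (1372, 627, 577 and 257 cells) 223 genes lay below and 115 above, and the combination stood apart at 61 genes. Without the Lyz2 minimum 65 lay below and 70 above.

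**Figure D2:**
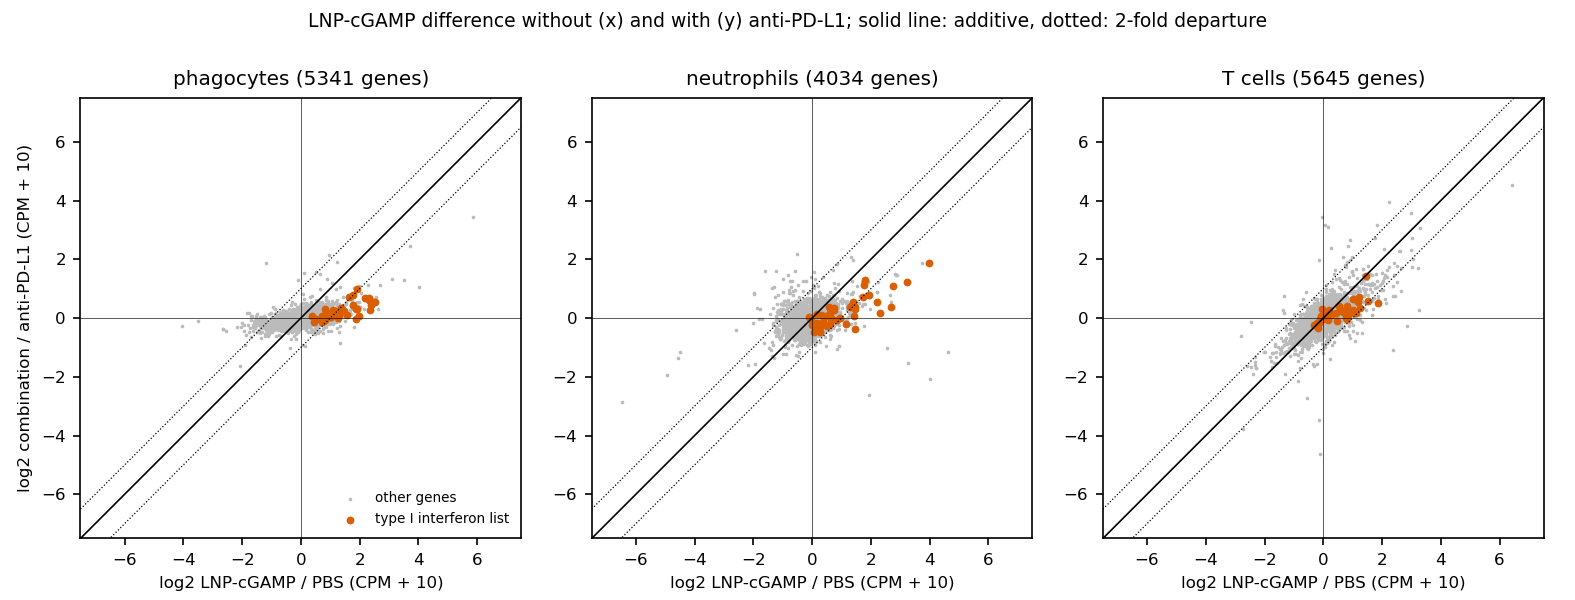
Log2 ratio of LNP-cGAMP to PBS (x axis) against that of the combination to anti-PD-L1 (y axis) for each gene past the filter in phagocytes, neutrophils and T cells, on CPM + 10, with the type I interferon list in orange. Points on the solid line are additive and the dotted lines mark 2-fold departures; in phagocytes the orange points lie right of 0 on the x axis but close to 0 on the y axis, all under the solid line.

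Every measured type I interferon gene lay below additivity in phagocytes. Of 47 listed genes 43 passed the filter, all 43 had a negative departure, and 19 were below additivity by 2-fold, against 1.97% of all genes. The median departure was -0.96, against -0.02 over all genes. On the median gene LNP-cGAMP was 1.21 log2 units over PBS, anti-PD-L1 was 0.30 over PBS, and the combination was 0.16 over anti-PD-L1. Isg15, a ubiquitin-like modifier of the antiviral response (chr4:156199424-156200818, minus strand, GRCm38), was at 182, 973, 289.7 and 355 CPM. LNP-cGAMP alone was the high library, and the combination was close to the antibody alone. Its departure was -2.07 (-2.12 to -2.03), so that the combination was at 23.7% of the additive expectation. Irf7, the transcription factor that amplifies interferon genes, was at 245, 1259, 352 and 572 CPM (departure -1.62). Here the combination was above the antibody alone, at less than a doubling, while LNP-cGAMP was far above PBS. Ifit3 and Ifit1, which bind viral RNA, were at 23.5, 165, 36.1 and 52.4 CPM and 39.2, 184, 59.7 and 63.4 CPM, with departures of -1.95 and -1.90. The schlafen gene Slfn4 had the same order (35.1, 248, 53.9 and 83.7 CPM, -1.96). The smallest departure of the list was that of Ifitm3, a membrane antiviral gene, at 5951, 7664, 6505 and 6803 CPM (-0.30). In male-called phagocytes the departure was -3.29 for Isg15, -1.51 for Irf7, -3.29 for Ifit3, -2.86 for Ifit1, -1.26 for Slfn4 and -0.41 for Ifitm3. The list median was -1.48 in these cells and -0.73 without the Lyz2 minimum.

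Many of these genes share a promoter element, which is shown because these genes departed together. STAT and IRF factors of the interferon response bind repeats of GAAA spaced by 2 bases. In RefSeq promoters of GRCm38.p6 (250 bases before to 50 after the gene start), GAAA, any 2 bases and GAAA again, on either strand with overlapping matches allowed, was present in 21 of 35 type I interferon genes with a promoter in the table (60.0%). It was in 1079 of all 27025 genes (3.99%), in 194 of 4185 genes of the phagocyte filter (4.64%), in 17 of 79 below additivity (21.5%) and in 1 of 56 above it (1.79%). A match describes the letters only. The 160 bases before the start are printed 5' to 3' on the gene's strand, with matches on either strand in capitals, for 3 interferon genes and for Socs1, the inhibitor of JAK kinases that ends interferon signalling. They lie at chr4:156200819-156200978, minus strand (Isg15), chr19:34640729-34640888, plus strand (Ifit1), chr19:34583369-34583528, plus strand (Ifit3) and chr16:10785537-10785696, minus strand (Socs1).
Isg15: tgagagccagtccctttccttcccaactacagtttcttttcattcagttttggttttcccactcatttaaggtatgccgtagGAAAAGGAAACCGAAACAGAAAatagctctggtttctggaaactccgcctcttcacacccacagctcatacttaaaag
Ifit1: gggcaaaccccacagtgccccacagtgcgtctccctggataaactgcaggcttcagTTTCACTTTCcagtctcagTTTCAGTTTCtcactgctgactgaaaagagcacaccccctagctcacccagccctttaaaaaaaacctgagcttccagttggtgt
Ifit3: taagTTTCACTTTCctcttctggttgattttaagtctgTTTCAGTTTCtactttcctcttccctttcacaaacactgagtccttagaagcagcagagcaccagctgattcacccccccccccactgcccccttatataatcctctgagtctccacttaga
Socs1: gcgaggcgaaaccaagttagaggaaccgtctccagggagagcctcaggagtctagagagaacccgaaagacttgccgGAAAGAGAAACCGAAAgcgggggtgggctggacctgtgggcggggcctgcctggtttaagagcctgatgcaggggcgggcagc
Isg15 holds 3 overlapping matches, and each of the other 3 holds 2, which overlap in Socs1 and are separate in both Ifit genes.

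Socs1 was 1 of 2 named phagocyte genes at which the LNP-cGAMP difference was at least 1.5-fold in opposite directions without and with the antibody. It was at 73.7, 199, 187 and 99.6 CPM. Both single agents were high and the combination was closer to PBS, which gave a departure of -2.17 (-2.25 to -2.09), and -4.27 in male-called cells. The chemokine Cxcl10, which draws T cells through CXCR3, was at 65.4, 253, 109 and 86.5 CPM. The combination was under the antibody alone, and the departure was -2.10 (-2.18 to -2.02). Cxcl9, another CXCR3 ligand, was low throughout, at 20.7, 28.7, 26 and 18.1 CPM (-0.69). Of 17 measured interferon-gamma response genes 17 had a negative departure, 8 were below by 2-fold and the median was -0.92. Gbp2, an interferon-induced GTPase, was at 1155, 888, 1616 and 784 CPM, highest in anti-PD-L1 and lowest in the combination (-0.66). Cd274, which encodes PD-L1, was at 119.9, 164, 184 and 129 CPM, higher than PBS with each agent and near PBS with both (-0.90). Of the cGAS-STING pathway itself 8 of 11 genes passed, 0 departed by 2-fold and the median was -0.12. As 3.46% of all phagocyte genes departed, 0 of 8 does not set this list apart. Tmem173, which encodes STING, was at 74.3, 144, 94.4 and 95.1 CPM (-0.86), and Enpp1, the enzyme that degrades extracellular cGAMP, at 77.8, 39, 69.5 and 78.7 CPM (1.00, just short of 2-fold), lowest in LNP-cGAMP. In male-called phagocytes Cxcl10 was at -3.48, Cxcl9 at -1.40, Gbp2 at -2.20, Cd274 at -2.23, Tmem173 at -1.83 and Enpp1 at 0.61. Cxcl9, Gbp2, Cd274 and Tmem173 thus passed 2-fold below additivity in these cells and not over all cells.

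Antigen presentation genes split by class. Of 18 MHC class I genes 17 had a negative departure and 5 were below by 2-fold, with a median of -0.60. H2-K1, a classical heavy chain, was at 1989.9, 4565, 2324 and 3369 CPM (-0.66). The combination lay between the single agents, though in male-called cells the departure was 0.00. H2-Q6, a non-classical heavy chain with near-identical neighbours that counting may not separate, was at 9.69, 159, 22 and 71 CPM (-1.76). Of 7 measured MHC class II genes 1 was above additivity and the median was 0.42. H2-Ab1, a class II chain, was at 462, 255, 594 and 527 CPM, low in LNP-cGAMP alone (0.66). In male-called phagocytes H2-Q6 was at -0.25, no longer past 2-fold, and H2-Ab1 at -0.43. The class II median turned to -0.55 there.

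Monocyte genes included the largest departure below additivity, that of Ly6c2. Of 11 inflammatory monocyte genes 10 were negative and 7 were below by 2-fold, with a median of -1.41. Ly6c2, the surface marker of recruited classical monocytes, was at 85.6, 1552, 329 and 695 CPM. Every treated library was above PBS, LNP-cGAMP most, and the combination was at 12.7% of the additive expectation (-2.97, -3.02 to -2.93). Ccr2, the receptor that brings monocytes into tissue, was at 205, 574, 248 and 253 CPM (-1.41), and Chil3, a chitinase-like monocyte product, at 721, 1773, 1527 and 1108 CPM (-1.74). A Ccr2 UMI was found in 55.5%, 81.8%, 59.3% and 67.9% of phagocytes, highest in LNP-cGAMP. Among phagocytes without a Ccr2 UMI the Ly6c2 departure was -2.57 and the type I interferon median -0.78. Fn1, fibronectin, was the exception in the list, at 649.9, 186, 475 and 336 CPM and 1.27. In male-called phagocytes Ly6c2 was at -2.57, Ccr2 at -1.49, Chil3 at -0.57, no longer past 2-fold, and Fn1 at 2.59.

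Of 16 listed inflammatory cytokines and mediators 7 passed the filter and 5 were below additivity by 2-fold, with a median of -1.25, and -0.30 in male-called cells. Of 6 measured chemokines for T and NK cells 2 were below, with a median of -0.58, and of 9 for myeloid cells 1 was below and 1 above (0.07). Ccl5, a chemokine for T cells and monocytes, was at 6.32, 934, 12.5 and 233 CPM. It was low in both libraries without LNP-cGAMP, and the combination was at 18.7% of additivity (-2.42, -2.51 to -2.33, and -1.13 in male-called cells). In cells with Csf1r under the Lyz2 minimum Ccl5 was at 88.7, 615, 24.1 and 270.3 CPM, and not below additivity. After thinning each cell to 2000 UMIs, a Ccl5 UMI was present in 1.24%, 25.6%, 1.56% and 11.6% of phagocytes (11.7%, 59%, 11.9% and 39.6% unthinned, at median depths of 35112, 20289, 31979.5 and 23200 UMIs). Neutrophils, which have median depths of 2125 to 2510 UMIs, had 1.31%, 15.7%, 0.798% and 6.08% when thinned, after 271, 231, 228 and 103 of them were left out as shallower than 2000 UMIs. Among phagocytes 12, 8, 7 and 22 were left out. LNP-cGAMP and then the combination had the highest shares in neutrophils too, and with a fixed 5% of the UMIs subtracted as background RNA the departure was -2.20 in phagocytes. Saa3, an acute-phase protein, was high in both LNP-cGAMP libraries. It was at 408, 5455, 788 and 4350.3 CPM, so the combination was nearly as high as LNP-cGAMP, in 19.4%, 64%, 27.5% and 61.2% of thinned phagocytes. A Saa3 UMI was also in 9.69%, 44.7%, 11.2% and 46.7% of thinned neutrophils. In thinned T cells the shares were 0%, 38.2%, 4.93% and 34.1%. The source of Saa3 in those gates was not tested. Its phagocyte departure of -1.26 was -0.42 when additivity was set on the linear scale, and turned to 1.33 in male-called cells. The iron-scavenging gene Lcn2 (18.8, 168, 111 and 141 CPM, -2.31) turned likewise, to 0.98. The collagenase Mmp8 was at 9.07, 206, 18 and 59.2 CPM (-2.20; -0.22 in male-called cells) and the decoy receptor Il1r2 at 22.3, 161, 52.2 and 74.1 CPM (-1.97; -1.31 in male-called cells). Lcn2, Mmp8 and Il1r2 are also neutrophil transcripts. The 10 neutrophil markers together were at 541, 1391, 599.7 and 542 CPM in phagocytes, highest in LNP-cGAMP, with none at 0. With background RNA subtracted Lcn2 was at -3.51, Mmp8 at -3.06 and Il1r2 at -3.43; the part of whole neutrophils was not tested.

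The genes above additivity were mostly lower in LNP-cGAMP than in PBS and near PBS in the combination. Lyve1, a hyaluronan receptor of resident macrophages, was at 460.3, 31.2, 407 and 381 CPM. LNP-cGAMP was the one low library, and the departure was 3.42 (3.32 to 3.52), and 1.35 in male-called cells. A Lyve1 UMI was found in 33.3%, 1.97%, 27.3% and 20.4% of thinned phagocytes and in 4.97%, 0.534%, 2.59% and 3.59% of thinned neutrophils. Cd163, the scavenger receptor for haemoglobin, was at 284, 40.3, 160.1 and 116 CPM. Both single agents were under PBS and the combination lay between them (2.12, 2.01 to 2.22). Of 10 measured resident macrophage genes 2 were above and 1 below, with a median of 0.56. Arg1, arginase, which depletes arginine in tumour-associated macrophages, was at 4693, 1540.3, 4152 and 3609 CPM (1.40) and in 87.5%, 54.6%, 75.1% and 79% of thinned phagocytes. The mannose receptor Mrc1 was at 438, 156, 336 and 304 CPM (1.29). The remaining highest departures were Fcgrt, the neonatal Fc receptor (238, 58.9, 172 and 195 CPM, 2.02), the phospholipid transfer gene Pltp (432, 98.3, 233 and 188 CPM, 1.73), ficolin A, Fcna (242, 70.2, 202 and 211 CPM, 1.71), cyclooxygenase-1, Ptgs1 (125, 31.2, 130.3 and 124 CPM, 1.65), and Calml4 (89.2, 25.2, 68.6 and 75.7 CPM, 1.62). At all 5 of them LNP-cGAMP was the low library. Pltp was the one at which the combination was also well under PBS. In male-called phagocytes Pltp was at 0.52, Arg1 at 0.91 and Mrc1 at 0.80, none of them past 2-fold. Cd163 was at 1.33, Fcgrt at 1.39, Fcna at 1.74, Ptgs1 at 1.53 and Calml4 at 1.84 there.

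**Figure D3:**
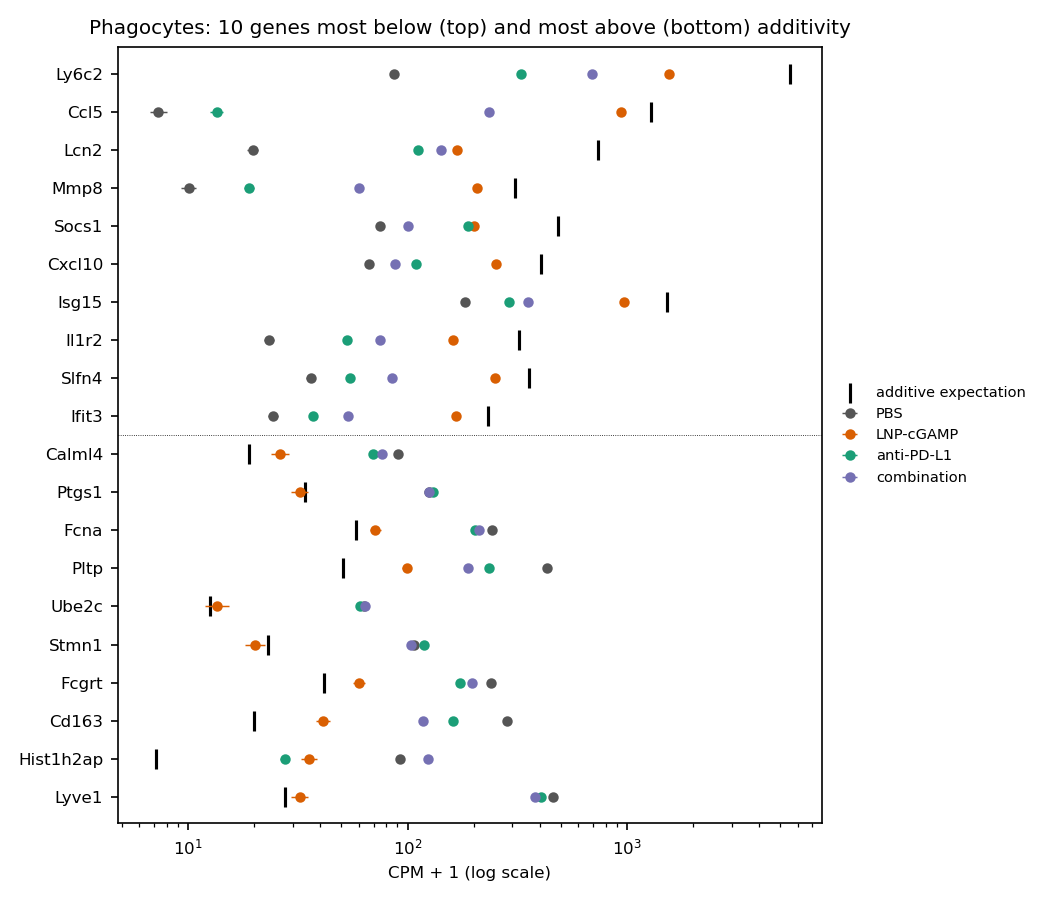
CPM + 1 (log x axis) in each library for the 10 phagocyte genes most below (top) and most above (bottom) additivity, with 95% Poisson intervals and the additive expectation as a black tick. For the top genes the combination lies left of the tick (at 12.7% of it for Ly6c2, on CPM + 10), and for the bottom genes LNP-cGAMP and the tick lie left of the other 3 libraries, except at Hist1h2ap, where anti-PD-L1 is lowest.

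Proliferation genes were above additivity as a group. Of 20 listed genes 19 passed and 14 were above by 2-fold, against 1.5% of all phagocyte genes, with a median of 1.24. Stmn1, which destabilises microtubules, was at 106, 19.2, 118 and 103 CPM (1.81), and Ube2c, the ubiquitin-conjugating enzyme of mitotic exit, at 62.5, 12.6, 59.5 and 63 CPM (1.75). In both, LNP-cGAMP was low and the other 3 libraries were close together. The histone gene Hist1h2ap was at 90.9, 34.5, 26.6 and 123 CPM (3.05), low in both single agents, with 30.6% of the LNP-cGAMP UMIs in 1 cell; it has near-identical copies that counting may not separate. A UMI of Mki67, Top2a or Birc5 was found in 35.8%, 13.8%, 32.3% and 29.9% of phagocytes. These shares are unthinned, at median depths of 35112, 20289, 31979.5 and 23200 UMIs. In thinned phagocytes a Stmn1 UMI was in 9.20%, 1.55%, 9.58% and 8.76%. Among phagocytes without a Mki67, Top2a or Birc5 UMI the list median was 0.03. That selection itself uses proliferation genes, so this value does not show which cells carry the departure. The list median was 0.38 in male-called phagocytes, with Stmn1 at 1.30, Ube2c at 1.79 and Hist1h2ap at 1.72. Mitochondrially encoded genes were above additivity by 2-fold at 9 of 11, against the same 1.5%, with a median of 1.28. The gene mt-Co3, a subunit of cytochrome oxidase, was at 7066, 2508, 6895 and 5872 CPM (1.26). Their median share of a phagocyte's UMIs was 3.29%, 1.18%, 3.20% and 2.65%. Among genes past 2-fold above, mt-Nd3 and the haemoglobin genes Hbb-bs and Hba-a1 exceeded most of the named ones, with departures of 2.30, 3.76 and 2.28. Hbb-bs was at 186, 1.89, 56.4 and 44.7 CPM, highest in PBS; red cells had been lysed before loading. In male-called phagocytes mt-Co3 was at 0.86, mt-Nd3 at 1.75, Hbb-bs at 0.65 and Hba-a1 at 0.26, of which mt-Nd3 was past 2-fold. Housekeeping genes had a median of 0.16 and 0 of 16 departed, near the 3.46% of all phagocyte genes that departed in either direction.

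In neutrophils interferon genes were below additivity too, but both single agents took part. Of 4034 genes, 71 (1.76%) lay below and 98 (2.43%) above, with a median of 0.05. The list counts in neutrophils stand against these shares. Against PBS, 84 genes (2.08%) were 2-fold higher and 72 (1.78%) lower in LNP-cGAMP, 28 (0.694%) and 66 (1.64%) in anti-PD-L1, and 56 (1.39%) and 85 (2.11%) in the combination. The combination was higher than LNP-cGAMP at 8 genes (0.198%) and lower at 31 (0.768%), and higher than anti-PD-L1 at 43 (1.07%) and lower at 23 (0.57%). LNP-cGAMP stood apart from the other 3 libraries at 16 genes, PBS at 28, anti-PD-L1 at 13 and the combination at 2. The LNP-cGAMP ratios without and with antibody had a correlation of 0.331 across genes. Of 42 measured type I interferon genes 41 were negative and 13 below by 2-fold, with a median of -0.74. Ifit3 was at 204, 1353, 765 and 1002 CPM. All 3 treated libraries were well above PBS, and the combination lay between the single agents, at 20.5% of additivity (-2.29, -2.49 to -2.09). Its neighbours Ifit3b (90.9, 487, 274 and 309 CPM, -2.13) and Ifit1bl1 (7.91, 269.7, 30.8 and 139 CPM, -2.10) had the same order; reads of these paralogs may not be fully separable. Isg15 was already high in PBS, at 1662, 3008, 2841 and 2733 CPM (-0.91), with the 3 treated libraries close together. Irf7 was at 504, 1417, 954 and 1236 CPM (-1.10). On the linear scale, where the expectation is a sum of CPM differences, the Ifit3 departure was -0.93 and the list median -0.54. Among neutrophils without a C1q UMI (65, 319, 378 and 95 cells) the list median was -1.05.

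Glycolysis genes and myeloid chemokines were above additivity in neutrophils. All 14 measured hypoxia and glycolysis genes were positive, 4 by 2-fold, with a median of 0.85, against -0.19 for this list in phagocytes. Gapdh was at 3028, 1524, 2401 and 2308 CPM (0.93) and Pkm, pyruvate kinase, at 2459, 1474, 2336 and 2240.5 CPM (0.67). Each agent alone was below PBS and the combination was not below the lower of them. Hilpda, a hypoxia-induced lipid droplet gene, was at 107, 92.2, 51.3 and 138 CPM, highest in the combination (1.46). Of 9 measured myeloid-recruiting chemokines 6 were above by 2-fold, with a median of 1.51. Cxcl2, a neutrophil chemoattractant, was at 2090.4, 1044, 1262 and 1722 CPM (1.44), and its relative Cxcl3 at 356, 148, 90.8 and 293 CPM (2.80). In both, PBS was highest and the combination second. Nos2, inducible nitric oxide synthase, was at 81, 79.4, 48.6 and 143 CPM (1.41), highest in the combination. The calgranulins S100a8 and S100a9, which define the gate, departed by 0.15 and -0.07.

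The other high departures in neutrophils were mostly of transcripts known from macrophages. Pf4, a platelet and macrophage chemokine, was at 594, 189, 90.3 and 295 CPM (3.21), and Arg1 at 483, 115, 116 and 215 CPM (2.82). C1qa and C1qb, complement chains made by macrophages, were at 359, 198, 91.3 and 269.7 CPM and 481, 237, 135 and 355 CPM (2.29 and 2.32). A C1q UMI was present in 588 of 653 PBS neutrophils, in 59.8% for LNP-cGAMP, 48.1% for the antibody alone and 79.6% for both. PBS and the combination were thus the high libraries for these genes and for that share. The 10 phagocyte markers summed to 1839, 1378, 1258 and 1349 CPM, with Csf1r at 0 by the gate. Subtracting a fixed 5% of the UMIs as background RNA, in the profile of the library's near-empty barcodes, raised these departures to 6.52 for Pf4, 5.48 for Arg1, 5.16 for C1qa, 5.98 for C1qb and 4.99 for Ccl8. Their size therefore moves with the background that is assumed, and the part of attached macrophages was not tested. Ccl8, a monocyte chemokine (2.69), Ckb, creatine kinase B (2.82), Ltc4s, leukotriene C4 synthase (2.38), Mrc1 (2.35) and Cysltr1, a leukotriene receptor (2.22), complete the 10 highest, with Ckb at 3.91, Ltc4s at 3.87 and Mrc1 at 3.33 after this subtraction. Of these 10, Pf4 and Arg1 in neutrophils without a C1q UMI departed by 3.93 and 3.72. One cell held 52.6% of the Arg1 UMIs of the LNP-cGAMP neutrophils.

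Of the 5 most negative neutrophil departures, those of Ngp, Camp and Ltf depended on the 5% of cells with the most UMIs. Ngp, a granule protein of immature neutrophils, was at 12.5, 356, 431 and 93.5 CPM (-6.12), and Camp, cathelicidin, at 1.32, 99, 28.1 and 3.28 CPM (-4.79). One barcode held 95.9% of the anti-PD-L1 UMIs of Ngp, and 1 held 69% of those of LNP-cGAMP. Without the 5% of cells with the most UMIs both genes turned, to 0.36 and 0.34. For Ltf, lactoferrin (5.27, 48.8, 67 and 2.46 CPM, -4.57), 1 barcode held 92.5% and 89.5% of the UMIs of the single-agent libraries. Without the top 5% of cells Ltf was at -0.49. With each cell weighted equally Ngp, Camp and Ltf were at -2.71, -1.63 and -1.63, still past 2-fold. Ccl5 (8.56, 443, 90.8 and 35.3 CPM, -5.76) and Nkg7, a cytotoxic granule gene (1.32, 55.7, 18.9 and 4.1 CPM, -3.57), are lymphocyte transcripts, and the measured T cell markers summed to 21.7, 107.7, 24.9 and 13.1 CPM. A single barcode held 69.6% of the anti-PD-L1 Ccl5 UMIs, but in LNP-cGAMP 164 neutrophils had a Ccl5 UMI and no barcode held over 18.4%. Ccl5 departed by -2.60 without the top 5% of cells, -4.25 with each cell weighted equally and -7.45 with background RNA subtracted. For Nkg7 1 barcode held 66.4% and 51.4% of the single-agent UMIs, and it departed by -1.05 without the top 5%. AW112010, an interferon-responsive transcript, was at 87.6, 617, 133 and 198 CPM (-2.15), and the heat-shock gene Hspa1a at 9.88, 58.4, 13 and 9.02 CPM (-2.06), high in LNP-cGAMP alone, where 32.8% of its UMIs came from 1 cell.

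**Figure D4:**
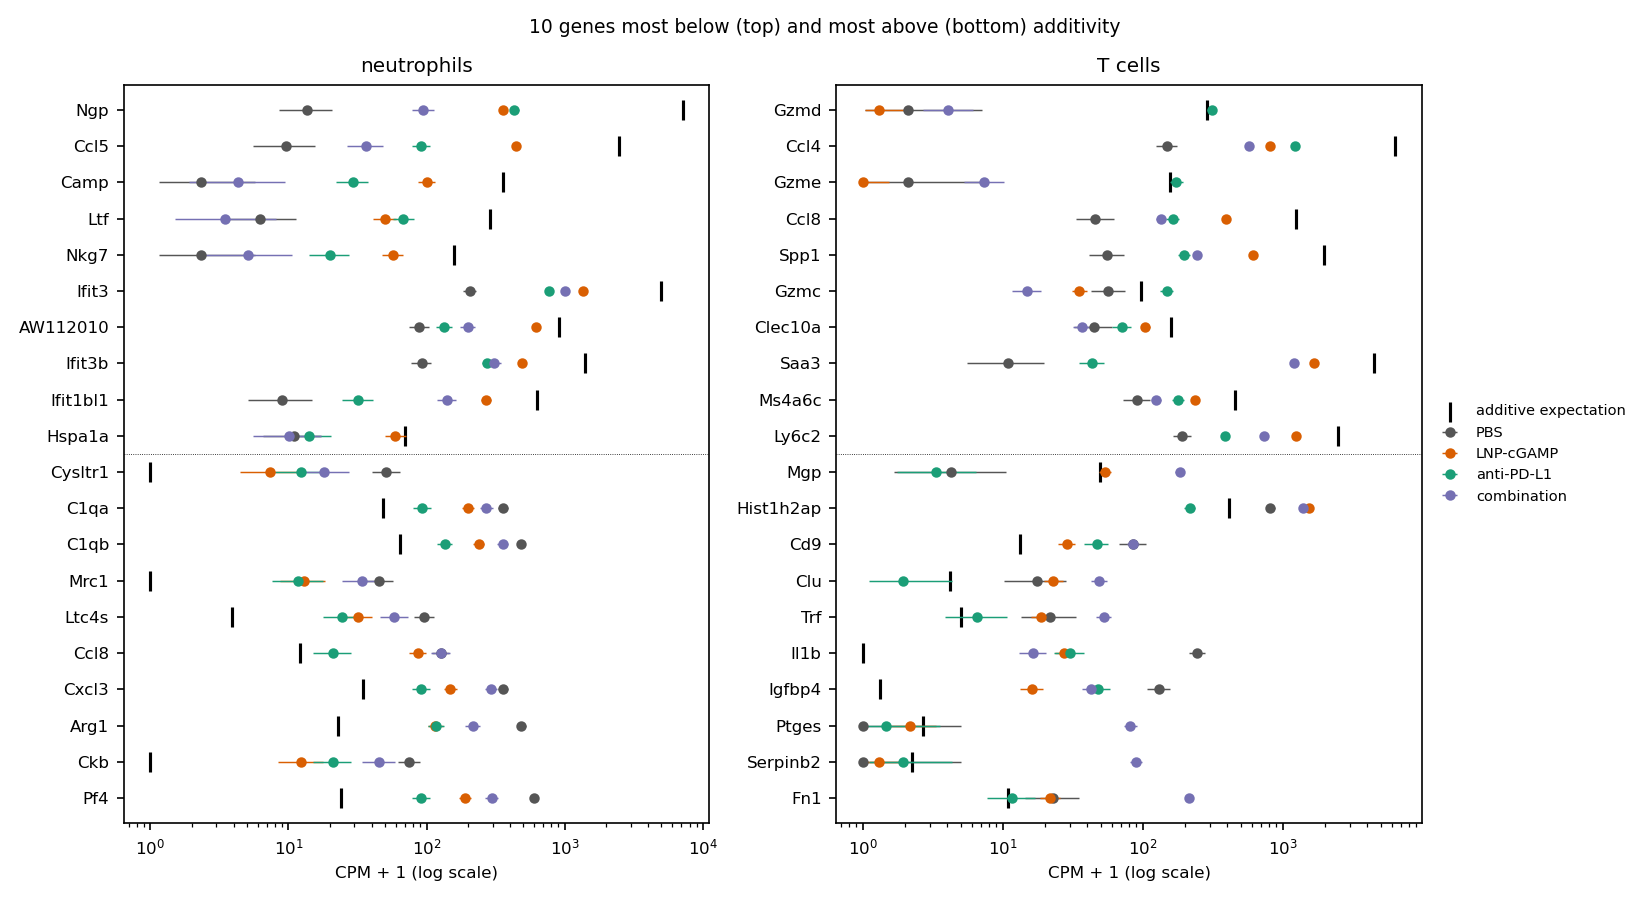
CPM + 1 (log x axis) in each library for the 10 genes most below (top) and most above (bottom) additivity in neutrophils (left) and T cells (right), with 95% Poisson intervals and the additive expectation as a black tick, drawn at the axis start where it is under 0. Intervals are wider than in phagocytes because fewer UMIs were summed, and the ticks of Ngp, Ccl5 and Ccl4 lie more than 10-fold right of the combination.

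In T cells fewer genes departed and the LNP-cGAMP difference was closer in size with and without antibody. Of 5645 genes, 60 (1.06%) were below and 31 (0.549%) above, with a median of -0.02. The list counts in T cells stand against these shares. LNP-cGAMP against PBS was 2-fold higher at 155 genes (2.75%) and lower at 76 (1.35%), anti-PD-L1 at 22 (0.39%) each way, and the combination at 114 (2.02%) and 102 (1.81%). In antibody-treated mice the combination was higher at 91 (1.61%) and lower at 55 (0.974%), and against LNP-cGAMP at 19 (0.337%) and 24 (0.425%). The ratios without and with antibody had a correlation of 0.658 across genes and standard deviations of 0.476 and 0.402 log2 units. PBS had the fewest cells, 79, and 914254 summed UMIs, against 2164062 to 6798968 in the others. Of 35 measured type I interferon genes 27 were negative and 1 was below by 2-fold, with a median of -0.27, which turned to 0.27 in T cells without a Csf1r UMI. Isg15 was at 147, 216, 98.4 and 136 CPM (-0.10, -0.43 to 0.22), an interval that includes 0.

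Most cytotoxic genes had departures below additivity in T cells. Of 24 listed 23 passed, 21 were negative and 7 were below by 2-fold, with a median of -0.51. Gzmb, the granzyme that triggers target cell death, was at 1071, 4639, 2692 and 4235 CPM. Every treated library was above PBS, and the combination was close to LNP-cGAMP and at 36.5% of additivity (-1.45, -1.55 to -1.35). Its departure was -1.19 without the top 5% of cells, but -0.56 on the linear scale. Perforin, Prf1, which opens the target membrane, was at 77.7, 153, 101 and 115 CPM (-0.71, but -0.13 without the top 5% of cells). The chemokine Ccl4 was at 148, 811, 1217 and 573 CPM (-3.45), with 70.0% of the anti-PD-L1 UMIs in 1 cell. Gzma went the other way, at 454, 1551, 175 and 1203 CPM (0.97), with 72.5% of the PBS UMIs in 1 cell, and turned to -1.86 without the top 5% of cells. Ifng, interferon-gamma, was at 49.2, 76.3, 61 and 171 CPM, highest in the combination (0.80, 0.35 to 1.25), where 72% of its UMIs came from 1 cell. The granzymes Gzmd, Gzme and Gzmc had departures of -4.51, -3.33 and -2.15. Their high library was anti-PD-L1, where 1 cell held 93.3%, 94.9% and 72.4% of the UMIs. Without the top 5% of cells they were at -1.39, -0.40 and -1.53. The 8 natural killer cell markers, which include cytotoxic genes, summed to 629, 1956, 379 and 1496 CPM in gated T cells. T cells without a UMI of the markers Ncr1 or Klrb1c numbered 74, 230, 122 and 160. Among them 68 genes lay below additivity and 42 above. Gzme, which was at -0.40 without the top 5% of all gated T cells, was at -3.68 among them. The other markers were not used in that selection, and the part of natural killer cells in these departures was not tested.

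Few checkpoint or naive T cell genes departed, as was so for all genes measured in T cells, of which 1.06% were below and 0.549% above. Of 12 measured checkpoint and exhaustion genes 1 was below by 2-fold, with a median of -0.37. Pdcd1, which encodes PD-1, was at 305, 259, 354 and 256 CPM (-0.22), Lag3 at 198, 198, 197 and 157 CPM (-0.31), and Ctla4 at 88.6, 66.6, 163 and 48 CPM (-1.21), highest in anti-PD-L1. Of 10 naive and memory genes 0 departed, with a median of 0.05. Il7r, the interleukin-7 receptor, was at 218, 60.7, 195 and 61.5 CPM (0.17) and the transcription factor Tcf7 at 107, 37.8, 71.6 and 26.5 CPM (0.13). Both were low in the 2 libraries with LNP-cGAMP to a similar extent. Proliferation genes had a median of -0.06, with 1 of 20 above, Hist1h2ap (1.73).

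The rest of the T cell extremes are mostly known from other cells. Below additivity were the myeloid genes Ccl8 (-3.12), Spp1, osteopontin (-2.98), the lectin Clec10a (-1.87), Saa3 (-1.87), Ms4a6c (-1.80) and Ly6c2 (-1.75), of which Ly6c2 is also expressed by T cells. A Csf1r UMI was present in 8.86%, 23.5%, 12.6% and 19.9% of gated T cells, and the phagocyte markers summed to 702, 1491, 622 and 1211 CPM. These shares are unthinned and follow the order of the median depths of gated T cells, 6012, 20230, 7747 and 19929 UMIs. Only 4, 27, 35 and 4 gated T cells had none of a Csf1r, C1q, Fn1 or Col1a2 UMI. Without the cells with a Csf1r UMI Ccl8, Saa3 and Ms4a6c turned, to 0.40, 0.57 and 0.93. Clec10a was then at -0.018, while Spp1 (-1.57) and Ly6c2 (-1.48) stayed past 2-fold. With background RNA subtracted Ccl8, Saa3 and Ms4a6c were at -6.37, -0.44 and -2.48. Above additivity were Fn1 (3.49), Serpinb2, a protease inhibitor (3.13), Ptges, prostaglandin E synthase (2.95), Igfbp4, an IGF-binding protein (2.32), Il1b (2.18), Trf, transferrin (2.13), Clu, clusterin (2.12), Cd9, a tetraspanin (2.08), and Mgp, matrix Gla protein (1.72). Single cells of the combination held 92.9% of its Fn1, 84.6% of its Serpinb2, 93.8% of its Ptges and 99% of its Mgp UMIs. The 10 tumour markers summed to 53.6, 190.5, 45.7 and 366.9 CPM in T cells, highest in the combination. The 10 neutrophil markers, beside Il1b, summed to 1839.8, 615, 273 and 125 CPM, highest in PBS. The part of either list in these departures was not tested. Leaving out shared barcodes, which removes 2 combination T cells, took Ptges to 0.39 and Cd9 to 0.60.

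**Figure D5:**
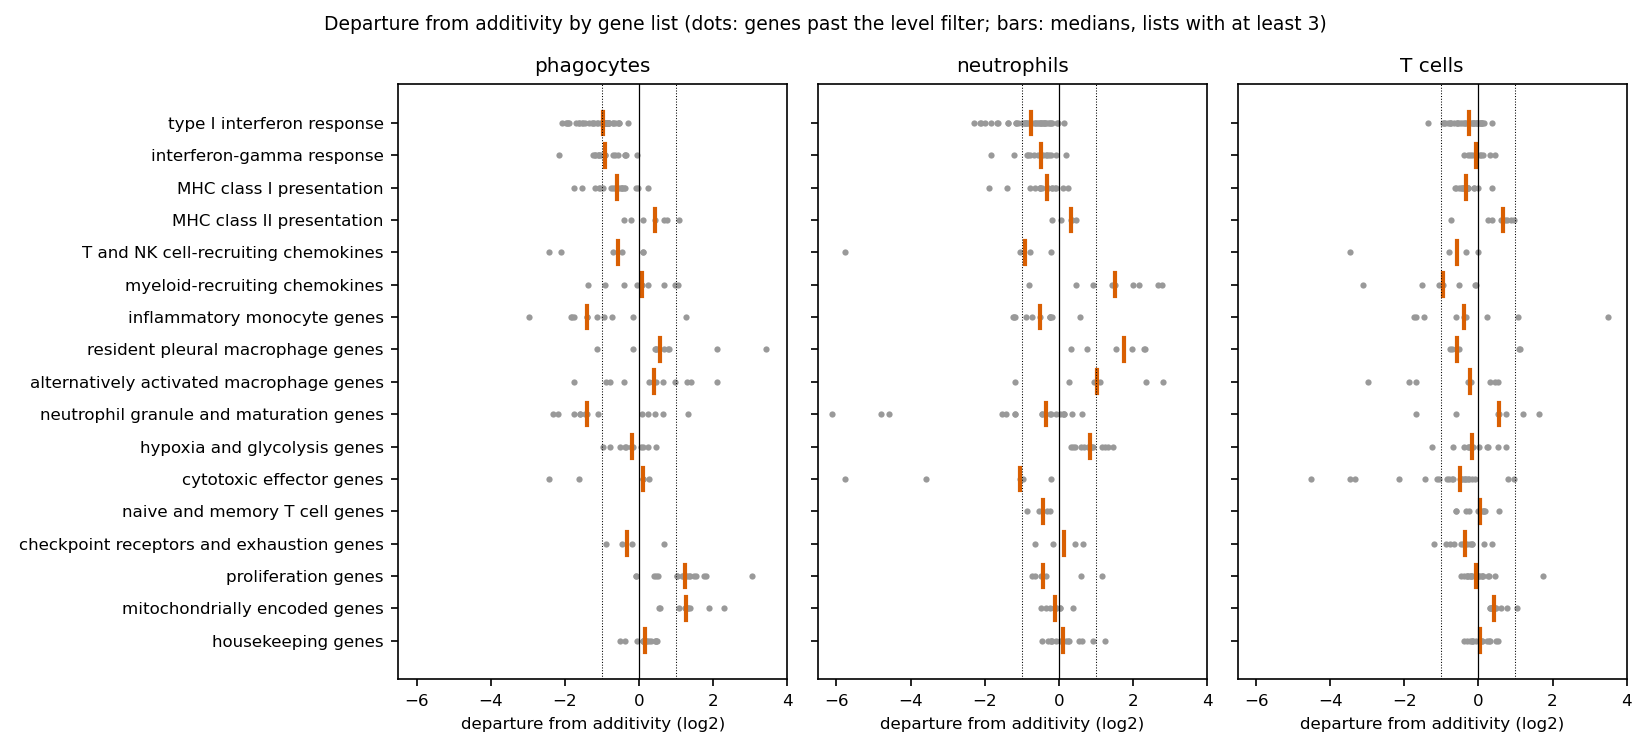
Departure from additivity (x axis, log2) of each gene past the filter, by gene list and cell gate, with list medians in orange and 2-fold departures as dotted lines. The type I interferon medians are -0.96 in phagocytes, -0.74 in neutrophils and -0.27 in T cells, and the proliferation and mitochondrially encoded medians exceed 1 in phagocytes only among these 3 gates.

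Phagocytes and neutrophils shared part of their genes below additivity. Among 3463 genes measured in both, 20 were below in both, 22.2% of the 90 in phagocytes and 45.5% of the 44 in neutrophils. They included Ifit1, Ifit2, Ifit3, Irf7 and Rsad2 of the interferon programme, and Ccl5, Ly6c2, Chil3, Lcn2 and Mmp8. Above additivity 13 were shared (41.9% of 31 and 15.3% of 85), among them Arg1, Mrc1 and Cxcl3. Over all genes past each filter, 1.97% were below and 1.5% above in phagocytes, and 1.76% and 2.43% in neutrophils. The same 4 mouse pools and the same free RNA underlie both gates, so these are not independent measurements. With T cells, phagocytes shared 12 genes below additivity of 76 and 44 in the genes measured in both (15.8% and 27.3%).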

How the data were processed

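The deposited matrices hold raw UMI counts per gene and barcode, made by the authors. Per the file headers the program was Cell Ranger 3.0.2, and the genome mm10 per the submitters' processing notes. The labels name 2 kit versions, so the kit is not given here. All barcodes were deposited, and cells were selected by the thresholds in the report. Doublets were neither called nor removed. UMIs were summed per library and gate and scaled to CPM. Genes entered with at least 20 UMIs and a mean of at least 20 CPM over the 4 libraries. Departures were computed on log2(CPM + 10), which understates low genes. With 1 pool per group there is no residual spread, so no test was run and no p-value is given. Intervals combine exact 95% Poisson limits, or Clopper-Pearson limits for shares, and cover counting error only. A gene at 2-fold or more is counted as departing. The text names, per gate, the 10 genes furthest below and above additivity whose interval excludes 0 (ribosomal, mitochondrially encoded, haemoglobin, variable receptor, sex-linked and unnamed genes aside), the most abundant and most extreme genes of each list, and a set of preselected genes. The members, lists and rules were chosen with earlier results of these data known. Listed genes that the table does not hold under 1 symbol (Mx2, Gbp6, Cxcl11, Trac, Trbc1, Trbc2, Ighm and Igkc) were not analysed here. The procedure was tested on simulated data. Python 3.11.15, numpy 2.4.6, scipy 1.17.1, pandas 2.3.3 and matplotlib 3.10.9 were used. Alternatives changed the pseudocount, filter, scale, scaling factors, gates, cells included and background RNA, subtracted as a fixed 5% of UMIs in the profile of barcodes with 10 to 100 UMIs.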

Additional observations from a re-analysis of the deposited data

Results flagged for a closer look

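At 18 named genes the LNP-cGAMP difference was at least 1.5-fold and in opposite directions without the antibody (LNP-cGAMP against PBS) and with it (combination against anti-PD-L1). Many of the named genes were chosen for extreme departures. Over all genes past the filter it was so at 2 of 5341 in phagocytes (0.0374%). In neutrophils it was so at 32 of 4034 (0.793%) and in T cells at 6 of 5645 (0.106%). Each contrast is 1 pool against 1 pool, so the difference was not tested. Genes with opposite signs but a smaller difference on either side, such as Cxcl10 and Cd274 in phagocytes, are not among them. In phagocytes the 18 include Socs1, with log2 ratios of 1.32 without and -0.85 with antibody (departure -2.17), and Hist1h2ap, with -1.18 and 1.87 (3.05).

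In neutrophils 5 named genes were higher without antibody and lower with it. They were Ngp (4.02 and -2.09, departure -6.12), Ccl5 (4.61 and -1.16, -5.76), Camp (3.27 and -1.52, -4.79), Ltf (1.95 and -2.63, -4.57) and Nkg7 (2.54 and -1.04, -3.57). Without the 5% of cells with the most UMIs their departures were, in this order, 0.36, -2.60, 0.34, -0.49 and -1.05. Another 8 named neutrophil genes were lower without antibody and higher with it. They were Pf4 (-1.60 and 1.61, 3.21), Ckb (-1.97 and 0.86, 2.82), Arg1 (-1.98 and 0.83, 2.82), Cxcl3 (-1.21 and 1.59, 2.80), Ltc4s (-1.36 and 1.02, 2.38), Mrc1 (-1.31 and 1.04, 2.35), C1qb (-0.99 and 1.33, 2.32) and C1qa (-0.82 and 1.46, 2.29).

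In T cells the named genes were Ccl4 (2.38 and -1.07, -3.45), Clec10a (1.08 and -0.80, -1.87) and Cd9 (-1.32 and 0.76, 2.08). In T cells without a Csf1r UMI their departures were -3.91, -0.018 and 1.25, and without shared barcodes -3.38, -1.99 and 0.60.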

How the results depend on the processing

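The type I interferon median stayed below 0 under every alternative run in phagocytes (-1.48 to -0.73) and neutrophils (-1.05 to -0.54), and ranged from -0.47 to 0.27 in T cells. The selections by C1q and Csf1r UMIs, the gate with no Lyz2 minimum and the removal of shared barcodes were chosen after seeing the data. Counts of departing genes moved with the settings. In phagocytes, those above were 122 with a pseudocount of 1, 31 with 50, 37 with a mean of at least 100 CPM and 53 without cycling cells. Those below were 43 with a pseudocount of 50, 60 on the linear scale, 51 at 100 CPM, 223 in male-called cells, 164 with stricter gates and 65 without a Lyz2 minimum. In neutrophils, those above were 166 and 39 with pseudocounts of 1 and 50, 272 on the linear scale, 186 with no filter, 29 at 100 CPM, 184 with equal weight per cell, 187 without the 5% of cells with the most UMIs and 390 without C1q cells. Those below were 39 with a pseudocount of 50, 35 on the linear scale, 122 with no filter, 37 at 100 CPM and 336 without C1q cells. In T cells, those above were 66 and 12 with pseudocounts of 1 and 50, 119 on the linear scale, 82 with no filter, 6 at 100 CPM, 73 with equal weight and 91 without Csf1r cells. Those below were 115 and 22 with pseudocounts of 1 and 50, 39 on the linear scale, 109 with no filter, 16 at 100 CPM, 110 with equal weight and 122 without the top 5%. Genes below were 56.8%, 42.0% and 65.9% of departing genes in phagocytes, neutrophils and T cells, and 34.9%, 11.4% and 24.7% on the linear scale. The departure of the phagocyte share was 1.64 with stricter gates and 0.29 without a Lyz2 minimum, and that of the T cell share -1.72 with stricter gates.

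Some values changed sign. In male-called phagocytes Lcn2 was 0.98, Saa3 1.33, Alox15 3.19 and Lpl -1.57. Alox15 was 0.38 in cells with Ccr2, and without Ccr2 Cxcl3 was -0.012 and H2-Eb1 -0.14. In neutrophils the cytotoxic median was 0.072 with equal weight and 0.25 without the top 5% of cells, where the T and NK cell chemokine median was 0.36, Ngp 0.36 and Camp 0.34. Without C1q cells Ffar2 was 0.17 and Spp1 -0.68. In T cells with equal weight the myeloid chemokine median was 0.065, the phagocyte marker median 0.068 and Ccl9 0.065. Ptges was -0.13 without the top 5%, and Cd63 -0.018 without shared barcodes. Without Csf1r cells the myeloid chemokine median was 0.69, the phagocyte marker median 0.65, Ccl8 0.40, Saa3 0.57, Ms4a6c 0.93, Chil3 0.55, Fcgr1 0.031, Ifi204 0.19, Ccl9 1.70 and Ptges -0.049. The cause was not tested.

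Alternatives that left under 50 cells in a library were not run. They were male-called neutrophils and T cells, and T cells at 5% mitochondrial UMIs, with stricter gates, with Cd8 UMIs only, or without Csf1r, C1q, Fn1 and Col1a2 UMIs. No paired analysis was possible because each group is 1 pool. Depth limits the T cell and neutrophil values, with 914254 to 6798968 and 1219835 to 2191540 summed UMIs, against 16364606 to 65371123 in phagocytes.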

Other observations

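Cells with Csf1r but under the Lyz2 minimum numbered 272, 1526, 357 and 1153, in the library order of the report. Isg15 in them was at 359, 698, 406 and 485 CPM. LNP-cGAMP was the high library, but by less than in gated phagocytes (182, 973, 289.7 and 355 CPM). Saa3, the acute-phase protein, was at 224, 6844, 861 and 6424 CPM, high in both libraries with LNP-cGAMP. Ccl5 was at 88.7, 615, 24.1 and 270.3 CPM, against 6.32, 934, 12.5 and 233 CPM in gated phagocytes. PBS was thus closer to LNP-cGAMP here, and Ccl5 was not below additivity in these cells. Isg15 still was, by less than in gated phagocytes. In the LNP-cGAMP library these cells outnumbered the 719 gated phagocytes. The gene departures of gated phagocytes therefore do not carry over to them unchanged, and for Ccl5 not in direction. The complement chain C1qa was at 1515, 3157, 2569 and 3447 CPM, and the dendritic cell receptor Flt3 at 15.9, 0.564, 3.59 and 1.80 CPM, highest in PBS. The neutrophil transcript S100a8 was at 2254, 1162, 2134 and 1016 CPM, above the 281, 676, 360.2 and 281 CPM of gated phagocytes. Doublets were not removed, so what these cells are was not settled.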
